A study of Rattus norvegicus with 12 samples.

Results

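The collagen genes of the rat retina were compared between eyes injured with NMDA and eyes given PBS. They were taken as every gene typed protein coding in the deposited gene table whose symbol is Col, a number, the letter a and a number, which gave 44 of the table's 30560 genes. By the kind of structure their chains build, 11 were fibrillar, 8 belonged to basement membranes (the 6 type IV chains, Col15a1 and Col18a1) and 25 were other collagens. Total RNA was sequenced from whole retinas of 12 rats, 1 library per rat. In 6 rats 2 µL of 20 mM NMDA had been injected into the vitreous, and in the other 6 rats 2 µL of PBS. NMDA activates one family of glutamate receptors, and in excess it kills neurons of the inner retina, ganglion cells above all. Both groups had an intravitreal injection, so that an uninjected retina was not among the samples. The sources used here did not give the strain, the age of the rats, the delay from injection to collection or the side of the eye. Libraries carry their group and label number as names, NMDA 1 to NMDA 6 and PBS 1 to PBS 6.

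Collagens are secreted or membrane-anchored proteins whose chains wind into a triple helix. Fibrillar collagens pack into banded fibrils, and fibril-associated collagens decorate their surface. Type IV collagen forms the sheet-like network of basement membranes, which in the retina line the vitreous face (the inner limiting membrane), the pigment epithelium (Bruch's membrane) and the capillaries. Fibrils of type II collagen, with type IX on their surface and a hybrid of type V and type XI chains within, form the scaffold of the vitreous. Transmembrane collagens span the cell surface and can be shed from it. New chains are hydroxylated, glycosylated and folded in the endoplasmic reticulum, trimmed by propeptide proteases outside the cell and joined by lysyl oxidases.

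The type IV genes lie in head-to-head pairs, so that the DNA between 2 chains serves both as upstream sequence. The 6 type IV genes moved together across the libraries, as described with their values. Each spacer joins only 2 of them, on chromosomes 16, 9 and X, and the part of the spacers in these levels was not tested. The type IX genes, on chromosomes 9, 5 and 3, also shared their lowest and highest libraries. In the rat RefSeq annotation (GRCr8), 76 bases lie between the starts of Col4a1 and Col4a2, 412 between those of Col4a3 and Col4a4, and 1414 between those of Col4a5 and Col4a6. The whole first spacer (chr16:84885521-84885596, plus strand) and the 250 bases before Col4a3 (chr9:91323740-91323989, plus strand) are printed. Upstream windows of 250 bases follow for Col11a1 (chr2:204508886-204509135, plus strand) and Col23a1 (chr10:36050077-36050326, plus strand), which were lower with NMDA, and for Col6a1 (chr20:11905440-11905689, plus strand), which was higher. Capitals mark 3 short motifs searched on both strands: the GC box (GGGCGG), the CCAAT box (CCAAT) and the TATA box (TATAAA), whose letters do not overlap one another here.
Col4a1 and Col4a2 spacer: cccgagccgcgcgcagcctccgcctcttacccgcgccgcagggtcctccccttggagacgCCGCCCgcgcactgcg
Col4a3 upstream: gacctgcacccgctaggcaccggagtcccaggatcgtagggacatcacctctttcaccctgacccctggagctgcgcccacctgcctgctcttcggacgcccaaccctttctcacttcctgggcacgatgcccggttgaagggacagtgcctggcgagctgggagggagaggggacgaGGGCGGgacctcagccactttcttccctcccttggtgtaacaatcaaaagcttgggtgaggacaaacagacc
Col11a1 upstream: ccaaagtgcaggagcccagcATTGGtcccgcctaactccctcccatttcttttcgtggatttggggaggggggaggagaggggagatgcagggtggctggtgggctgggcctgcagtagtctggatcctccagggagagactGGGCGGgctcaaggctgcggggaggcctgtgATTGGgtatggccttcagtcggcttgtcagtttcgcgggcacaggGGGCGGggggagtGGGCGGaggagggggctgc
Col23a1 upstream: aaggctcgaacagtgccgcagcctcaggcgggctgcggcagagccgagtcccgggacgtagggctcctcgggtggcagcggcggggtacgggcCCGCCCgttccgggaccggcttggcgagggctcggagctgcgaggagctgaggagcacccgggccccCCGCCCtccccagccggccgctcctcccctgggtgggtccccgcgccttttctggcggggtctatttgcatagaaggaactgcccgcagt
Col6a1 upstream: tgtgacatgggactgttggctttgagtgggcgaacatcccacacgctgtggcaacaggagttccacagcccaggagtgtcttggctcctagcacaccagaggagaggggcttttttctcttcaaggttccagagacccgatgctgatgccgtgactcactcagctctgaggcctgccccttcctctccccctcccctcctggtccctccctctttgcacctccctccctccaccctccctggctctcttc

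The Col4a1 and Col4a2 spacer and the Col4a3 window each held 1 GC box and neither of the other motifs. Col11a1 held 3 GC boxes and 2 CCAAT boxes, Col23a1 held 2 GC boxes, and the Col6a1 window had none of the 3 motifs. Windows not printed, of the lower genes Col24a1 and Col13a1, held 1 GC box and 1 TATA box in that order, and Col13a1 had no GC box. Those of Col11a2, Col5a3 and Col19a1 overlapped an annotated gene and were left out. RefSeq promoter entries matched 35 of the 44 members by symbol; of the changed members Col2a1, Col14a1, Col22a1 and Col25a1 had none. Of these windows 19 held a GC box, 11 a CCAAT box and 4 a TATA box. Among 27457 promoters of all rat genes, windows of 250 bases held these motifs in 32.4%, 34.3% and 13.1%, and windows of 76 bases in 19.3%, 13% and 4.78%. The matches describe the letters only.

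The libraries had 16415611 to 34022023 counts in genes. Collagen genes took 0.180% to 0.445% of them in NMDA libraries and 0.222% to 0.349% in PBS libraries. In bulk tissue, fewer cells of a type and less RNA per cell cannot be told apart. Genes of tissues around the neural retina varied widely between libraries of the same group, and the collagens made there are read beside them. Summed CPM, counts scaled to a common library total, of 11 connective tissue genes ran from 32.9 in NMDA 1 to 986.7 in NMDA 3, and from 206.6 to 502.6 in PBS libraries, highest in PBS 5. Pigment cell genes, 10 in number, summed to 34.5 to 727.8 CPM in NMDA libraries and 125.4 to 516.2 CPM in PBS libraries, again highest in NMDA 3 and PBS 5 and lowest in NMDA 1. Of these 10, 3 were lower with NMDA and 0 higher. The pigment epithelium genes Rpe65, Rgr and Lrat fell, at log2 fold changes of -1.67, -1.36 and -0.98 (edgeR adjusted p = 0.00119, 0.00143 and 0.0303), with no overlap between groups. Best1, also a pigment epithelium gene, did not pass and overlapped (log2 fold change 0.05; edgeR adjusted p = 0.911). Lens genes, 12 in number, summed to 72.4 to 3305 CPM in NMDA libraries, lowest in NMDA 1, and 586.1 to 2712 CPM in PBS libraries. None of the lens genes passed the test by edgeR, DESeq2 or limma or had an unadjusted edgeR p under 0.05. The defining connective tissue gene Dcn had 0.0180 to 43.6 FPKM in NMDA libraries and 0.190 to 26.3 FPKM in PBS libraries. Lum was at 0 in 1 library and Dpt in 5 of 12, and of the cornea genes Kera was at 0 in all. The retina label was met by its photoreceptor genes, 8 of which summed to 25637 to 38779 CPM in NMDA libraries and 39531 to 41501 CPM in PBS libraries. Neurons and glia differed by group: 8 of 10 ganglion cell genes and 8 of 8 photoreceptor genes were lower with NMDA, 10 of 10 microglia and macrophage genes were higher, and of 9 Müller glia genes 5 were lower and 2 (Vim and Sox9) higher (edgeR; 17.5% of all tested genes were lower and 20.4% higher). Results that rest on NMDA 1, NMDA 3 or PBS 5 are given with and without them.

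Of the 44 collagen genes, 41 had enough counts to test. Between NMDA and PBS, 12 of them changed, 2 higher and 10 lower, at an adjusted p under 0.05 (edgeR). The Col5a3 chain of type V collagen and Col6a1, a chain of the beaded filament collagen, were higher. The lower genes were 4 fibrillar collagens (Col2a1, Col11a1, Col11a2 and Col24a1), 3 fibril-associated collagens (Col14a1, Col19a1 and Col22a1) and 3 transmembrane collagens (Col13a1, Col23a1 and Col25a1). No basement membrane collagen passed. Without PBS 5, 4 collagens were higher, with Col3a1 and Col15a1 added. Among all 16260 genes tested, 37.9% changed, 20.4% higher and 17.5% lower (53.8% of the calls higher, and 64.6% with scaling by library size only), against 29.3% of the tested collagens, 4.88% higher and 24.4% lower. The share of collagens that changed was thus no larger than that of all genes, and the split between higher and lower calls was not tested. In 1 collagen every NMDA library exceeded every PBS library and in 6 every one was below (on CPM with TMM factors), 17.1% of the 41, against 18.1% of all genes tested (9.43% above and 8.66% below). The median log2 fold change was -0.04 over the collagens and 0.01 over all genes.

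**Figure D1:**
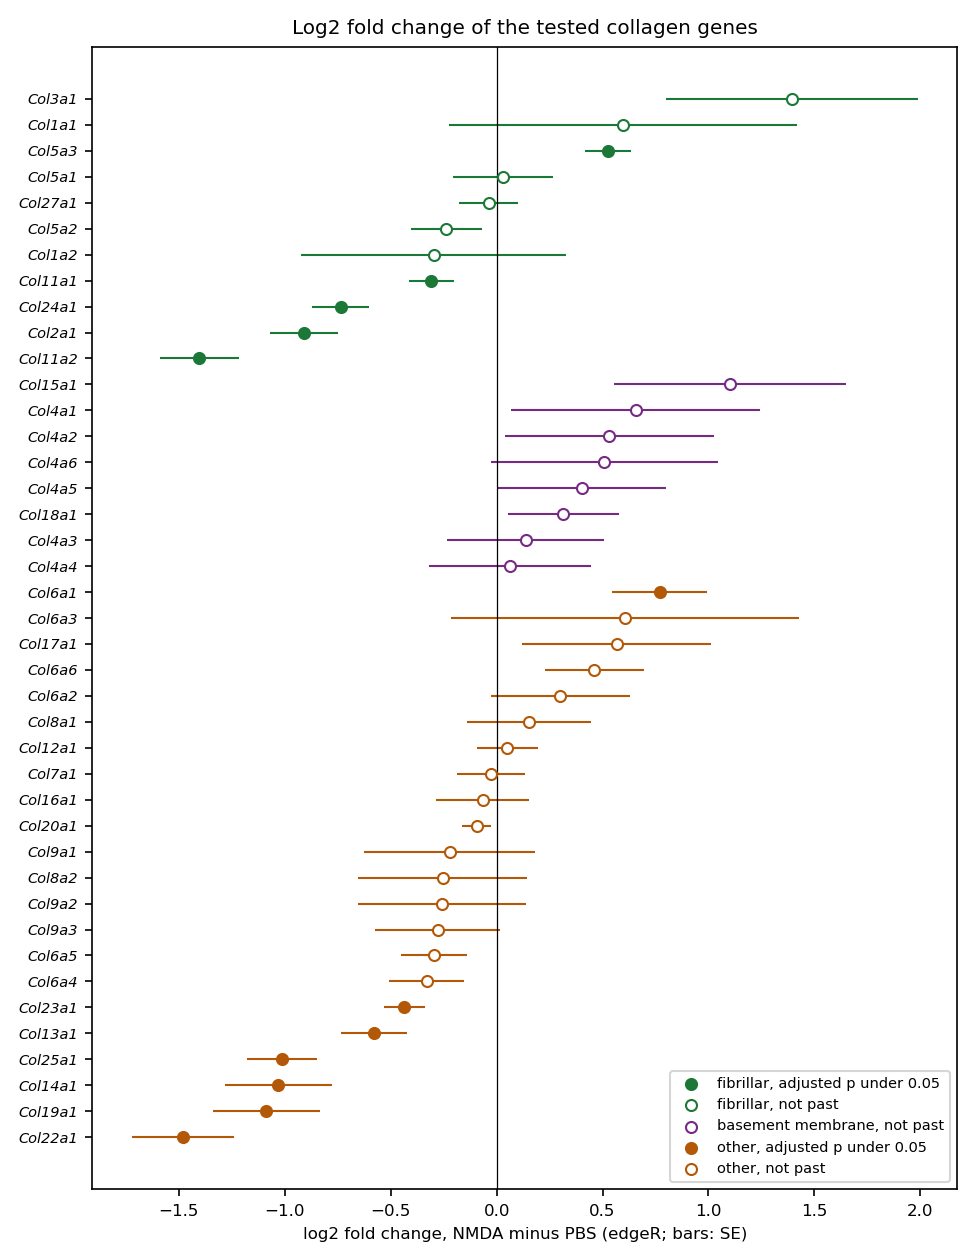
Log2 fold change (NMDA minus PBS, horizontal axis) of the 41 tested collagen genes, grouped by class, with bars for the SE from edgeR. The points run from -1.48 for Col22a1 to 1.39 for Col3a1, and all 8 basement membrane genes lie above 0 with wide bars.

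Among the 11 fibrillar collagens 1 was higher and 4 lower by edgeR (45.5%, against 37.9% of all genes tested), and the difference in share was not tested. The genes of the type II and type XI chains, which copolymerise in cartilage fibrils, were lower after NMDA. Col11a2, a type XI chain (ENSRNOG00000000463, chromosome 20, 4786929 to 4815985), had 6.22 FPKM in the lowest, 6.96 in the median and 12.3 in the highest NMDA library, against 17.5, 19.5 and 28.2 FPKM in PBS libraries. The groups did not overlap, and NMDA 3 was the highest of the NMDA libraries. Its log2 fold change was -1.40 ± 0.19 (SE; edgeR adjusted p = 0.000217), a level 0.378 times that with PBS. Col2a1, the sole chain of type II collagen (ENSRNOG00000058560, chromosome 7, 129098786 to 129127546), had 11.02, 16.9 and 21.1 FPKM in the lowest, median and highest NMDA libraries and 26.1, 29.9 and 42.5 FPKM in PBS libraries. Every NMDA library lay below every PBS library, and PBS 4 stood above the rest of its group. The log2 fold change of Col2a1 was -0.91 ± 0.16 (SE; edgeR adjusted p = 0.00102). Col24a1, a fibrillar chain known from developing bone and brain cortex in mouse, was at a lower level of 0.959, 1.36 and 1.86 FPKM in NMDA libraries and 1.98, 2.13 and 2.52 FPKM in PBS libraries. Its groups did not overlap either (log2 fold change -0.74 ± 0.14, SE; edgeR adjusted p = 0.00103).

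Col11a1, the other type XI chain (chromosome 2, 201820715 to 202013853), differed less. It had 18.1, 24.9 and 28.4 FPKM in the lowest, median and highest NMDA libraries and 25.6, 28.6 and 36.2 FPKM in PBS libraries, and the groups overlapped. It passed narrowly (log2 fold change -0.31 ± 0.11, SE; edgeR adjusted p = 0.0357). It did not pass in 11 of 25 other settings, which included scaling by library size alone (adjusted p = 0.0778) and leaving out any 1 of 6 libraries (NMDA 4, NMDA 5, NMDA 6, PBS 1, PBS 3 or PBS 4; adjusted p 0.0543 to 0.0777).

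Col5a3 went the other way and was the most abundant collagen per length, at 139 ± 17.9 FPKM with NMDA and 93.1 ± 14.8 FPKM with PBS (SD, n = 6 each). The gene (ENSRNOG00000020525, chromosome 8, 19304571 to 19349853) encodes a minor chain of type V collagen, which in other tissues joins the core of heterotypic fibrils and is made by Schwann cells in rat. Its lowest, median and highest values were 116, 138 and 161 FPKM in NMDA libraries and 70.5, 98.1 and 110 FPKM in PBS libraries. Every NMDA library lay above every PBS library, the only collagen of which this held in that direction (log2 fold change 0.52 ± 0.11, SE; edgeR adjusted p = 0.00225). Col5a3 took 16.3% to 37.4% of the summed collagen FPKM in NMDA libraries and 12.4% to 21.9% in PBS libraries, with the highest share in NMDA 1 and the lowest in PBS 3. The other type V chains did not pass: Col5a1 had a log2 fold change of 0.03 (95% interval -0.49 to 0.55) and Col5a2 one of -0.24 (-0.60 to 0.12).

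The remaining fibrillar genes did not pass either. Col27a1, a fibrillar chain of cartilage, averaged 19.9 FPKM with NMDA and 19.7 FPKM with PBS, a log2 fold change of -0.04 (95% interval -0.34 to 0.27). The type I and type III genes encode the main fibril collagens of skin, sclera and vessel walls. Col1a1 and Col3a1 were low in most libraries and high in a few. Col1a2 differed, with a median of 2.52 FPKM in NMDA libraries (0.527 to 5.18) and 3.42 FPKM in PBS libraries (0.396 to 5.39). It was highest in NMDA 3 and in PBS 3 (log2 fold change -0.30; edgeR adjusted p = 0.751). Col1a1 had 0.217 to 4.10 FPKM in NMDA libraries and 0.257 to 2.06 FPKM in PBS libraries, highest in NMDA 3 and in PBS 5. The log2 fold change of Col1a1 was 0.60, and it was -0.82 without NMDA 3, 1.43 without PBS 5 and 0.0085 without both (edgeR adjusted p = 0.612, 0.268, 0.181 and 0.983), so that its direction rested on these libraries. Col3a1 had 1.54, 2.75 and 9.57 FPKM in the lowest, median and highest NMDA libraries and 0.609, 0.783 and 4.21 FPKM in PBS libraries. All 6 NMDA libraries were above all PBS libraries but PBS 5 (log2 fold change 1.39 ± 0.59, SE; edgeR adjusted p = 0.0859). Without PBS 5 the log2 fold change of Col3a1 was 2.19 (edgeR adjusted p = 0.00326), and without both PBS 5 and NMDA 3 it was 1.62 (edgeR adjusted p = 0.000105). Col3a1 was singled out after its values were seen. In both of these libraries the connective tissue and pigment cell sums were also the highest of their group, and their part in the result was not tested.

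**Figure D2:**
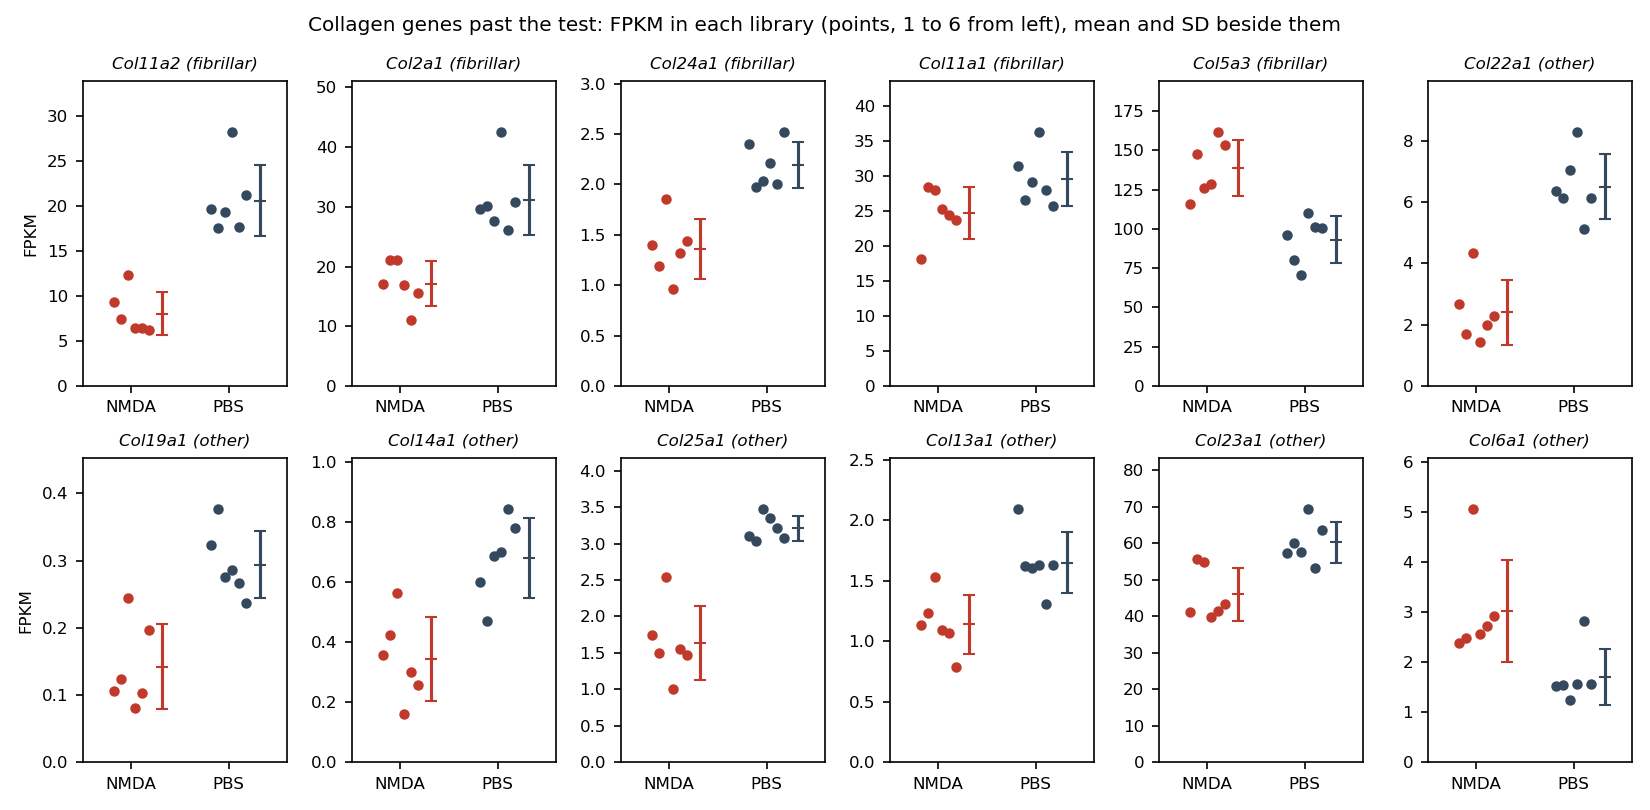
FPKM (vertical axis, from 0) of the 12 collagen genes with an edgeR adjusted p under 0.05, with points for the 6 libraries of each group, NMDA left of PBS, and the mean with its SD. Col11a2, Col2a1, Col24a1, Col22a1 and Col25a1 show NMDA points that all lie below the PBS points, Col5a3 shows them all above, and Col6a1 has a high point in each group (5.07 FPKM in NMDA 3 and 2.83 FPKM in PBS 5).

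Type I collagen is a trimer of 2 chains, and in these libraries its genes did not keep a fixed ratio. The ratio of Col1a1 to Col1a2 in FPKM ran from 0.0978 to 0.792 in NMDA libraries and from 0.0586 to 0.648 in PBS libraries. On the log2 scale it averaged -1.94 ± 1.12 with NMDA and -2.24 ± 1.65 with PBS (SD, n = 6 each), a difference of 0.30 that was smaller than the spread between replicates (two-sided exact permutation p = 0.714). In NMDA 3 and PBS 5 the ratio was 0.792 and 0.533, and in PBS 3, PBS 6 and NMDA 5 it was under 0.1.

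The basement membrane collagens were among the most abundant and the most variable. Their 8 genes had log2 fold changes of 0.06 to 1.10, median 0.46, all above 0. None passed, against 37.9% of all genes tested, and none had an unadjusted edgeR p under 0.05. None passed by DESeq2, limma voom or limma on log2 FPKM either. Col4a1, with Col4a2 the chain pair of nearly all basement membranes (ENSRNOG00000016281, chromosome 16, 78183533 to 78294412), had 10.4, 72.5 and 110 FPKM in the lowest, median and highest NMDA libraries and 7.32, 45.6 and 71.2 FPKM in PBS libraries. The spread within each group was larger than the difference between the medians, and the groups overlapped (log2 fold change 0.66 ± 0.59, SE; 95% interval -0.63 to 1.94; edgeR adjusted p = 0.419). Col4a2 (chromosome 16, 78047602 to 78183839) had 8.54, 41.5 and 61.8 FPKM in NMDA libraries and 7.58, 28.9 and 42.8 FPKM in PBS libraries (log2 fold change 0.53 ± 0.49, SE; edgeR adjusted p = 0.435). Col18a1, whose C-terminal fragment is endostatin (chromosome 20, 11474104 to 11582593), had 7.55, 19.6 and 30.7 FPKM in NMDA libraries and 10.1, 15.2 and 19.1 FPKM in PBS libraries (log2 fold change 0.32 ± 0.26, SE; edgeR adjusted p = 0.383). Without NMDA 1 the log2 fold change of Col18a1 was 0.47 and without NMDA 3 it was 0.13 (edgeR adjusted p = 0.0523 and 0.706). A fall or a 2-fold rise of Col4a1 both lie within its interval, so that the direction was not determined at this spread.

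The 6 type IV genes shared their high and low libraries. All 6 were lowest in NMDA 1 among the NMDA libraries and in PBS 2 among the PBS libraries. In PBS 3 were the highest PBS values of 5 of the 6, and in NMDA 3 the highest NMDA values of 4 of the 6. The highest library exceeded the lowest 5.15 to 15.3 times within the NMDA group and 2.56 to 9.72 times within the PBS group, depending on the gene. The pairs differed in level: Col4a3 averaged 9.01 FPKM with NMDA and 7.90 FPKM with PBS, Col4a5 averaged 7.63 FPKM with NMDA and 5.58 FPKM with PBS, and both stood far below Col4a1 at 70.4 FPKM with NMDA and 43.0 FPKM with PBS. Summed type IV FPKM was 25.8, 147 and 220 in the lowest, median and highest NMDA libraries and 28.2, 101 and 153 in PBS libraries. NMDA 1 was also the library with the lowest connective tissue, lens and pigment cell sums. Without NMDA 1 the log2 fold change of Col4a1 was 0.87 (edgeR adjusted p = 0.199), and without NMDA 3 it was 0.48 (edgeR adjusted p = 0.591). Endothelial genes, which mark the cells on capillary basement membranes, summed to 877 to 1105 CPM in NMDA libraries and 755 to 890 CPM in PBS libraries. NMDA 1 was their second highest library. In FPKM, which unlike this sum is scaled by gene length, Kdr was highest, at a mean of 99.9 with NMDA and 88.5 with PBS. Esam (11.4 with NMDA and 11.1 with PBS), Vwf (11.3 and 6.61) and Flt1 (10.5 and 6.67) followed. The weight of each gene in the CPM sum was not worked out. Of the 11 genes, 5 were higher with NMDA and 0 lower (edgeR), against 20.4% higher among all genes, and Kdr did not pass. The part of these markers in the type IV values was not tested.

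**Figure D3:**
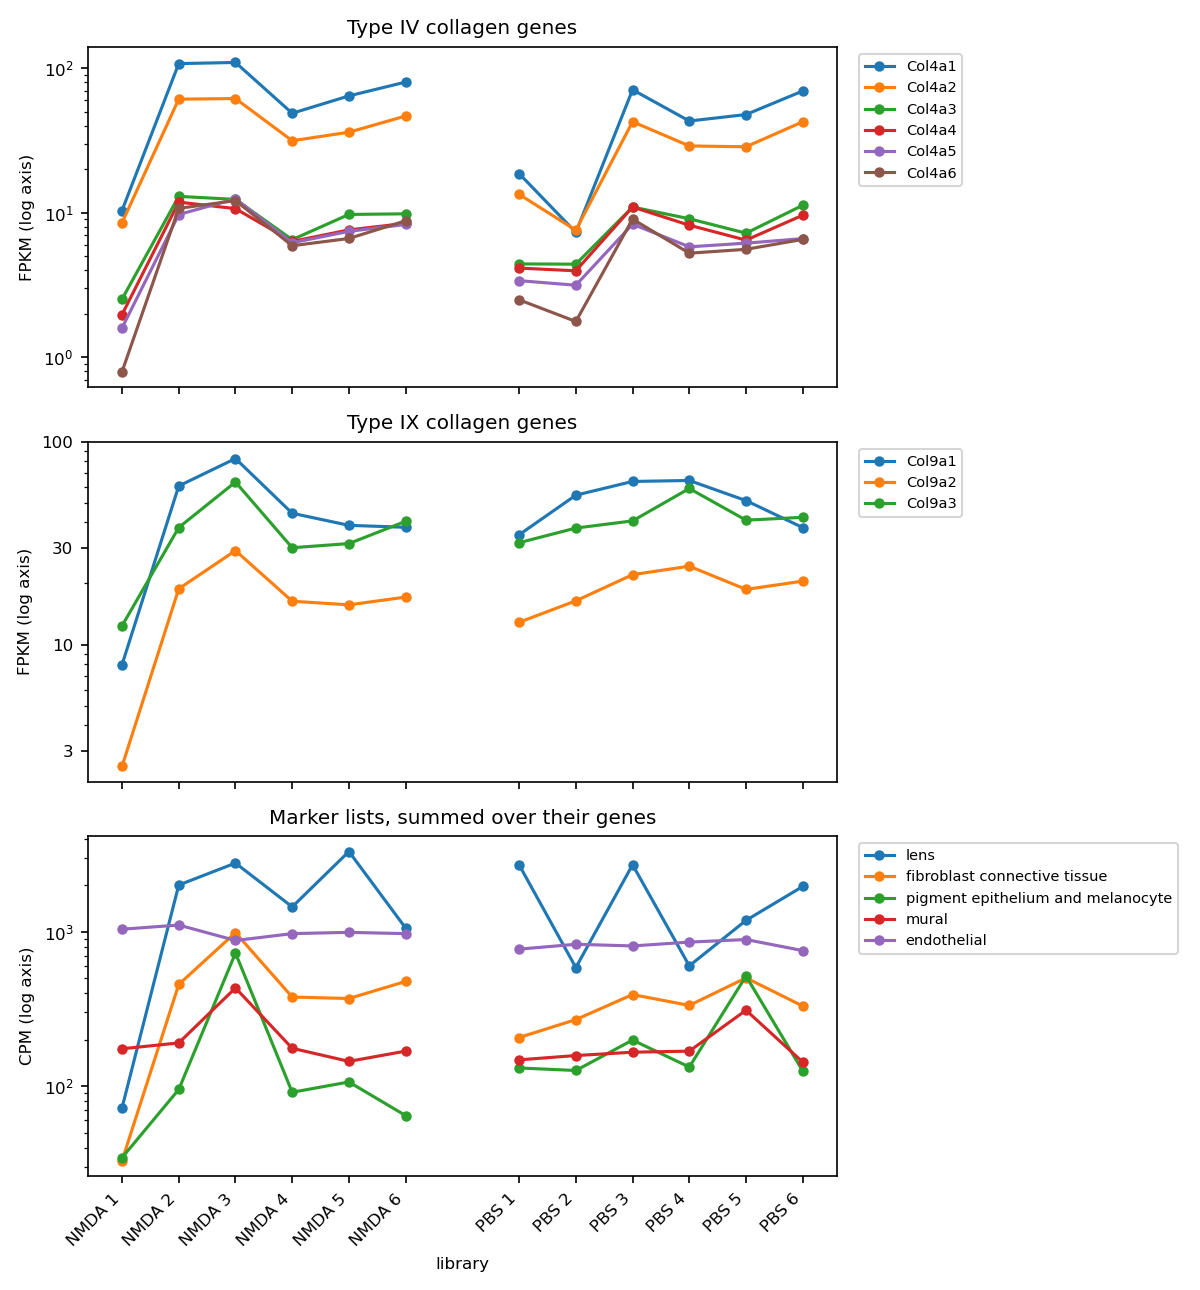
FPKM (vertical axes, log scale) of the 6 type IV genes and the 3 type IX genes in each library, and the summed CPM of lens, connective tissue, pigment cell, mural and endothelial genes, with NMDA libraries left of PBS libraries. Lines of the type IV genes run in parallel, with the low points at NMDA 1 and PBS 2, and those of the type IX genes have theirs at NMDA 1 and PBS 1.

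Within the pair that shares the printed 76-base spacer, the ratio of Col4a1 to Col4a2 varied little beside the levels. It was 1.21 to 1.78 in NMDA libraries and 0.965 to 1.67 in PBS libraries, lowest in NMDA 1 and PBS 2, where both genes were also lowest. On the log2 scale the ratio averaged 0.70 ± 0.22 with NMDA and 0.53 ± 0.30 with PBS (SD, n = 6 each), a difference of 0.17 within the replicate spread (two-sided exact permutation p = 0.333). The difference was 0.049 without PBS 2 and 0.25 without NMDA 1 (exact permutation p = 0.671 and 0.0606). The smallest p that 6 against 6 libraries allow is 0.00217. In the deposited table the 2 genes overlap by 307 bases and Col4a3 and Col4a4 by 316. The sources used here did not give the strand setting of the counting, so that reads from the overlaps cannot be assigned with certainty. Col15a1, a collagen of the basement membrane zone of vessels and muscle, was far lower, at 0.210 to 1.67 FPKM in NMDA libraries and 0.132 to 0.728 FPKM in PBS libraries (log2 fold change 1.10; edgeR adjusted p = 0.136). Without PBS 5, its highest PBS library, Col15a1 had a log2 fold change of 1.68 (edgeR adjusted p = 0.0189), and without PBS 5 and NMDA 3 one of 1.04 (edgeR adjusted p = 0.00805). It too was singled out after its values were seen.

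Fibril-associated collagens, which bind to fibril surfaces through interrupted helices, were 9 genes, and all were tested. Of these, 3 were lower after NMDA (33.3%) and none higher. Among all genes tested, 17.5% were lower and 37.9% changed in either direction, and the difference was not tested. Col22a1, known in other species from tissue junctions such as that of muscle and tendon (ENSRNOG00000024824, chromosome 7, 103731037 to 103968462), had 1.42, 2.14 and 4.35 FPKM in the lowest, median and highest NMDA libraries and 5.11, 6.23 and 8.27 FPKM in PBS libraries. The groups did not overlap, and no tested collagen fell further (log2 fold change -1.48 ± 0.24, SE; edgeR adjusted p = 0.000636). Col19a1, made in mouse brain by subsets of interneurons (chromosome 9, 26675391 to 27022106), had 0.0805, 0.115 and 0.244 FPKM in NMDA libraries and 0.237, 0.281 and 0.377 FPKM in PBS libraries. In FPKM NMDA 3 stood just above PBS 6, while on CPM scaled by TMM the groups did not overlap (log2 fold change -1.09 ± 0.25, SE; edgeR adjusted p = 0.00452). Col14a1, which in mouse limits fibril growth in tendon (chromosome 7, 86722094 to 86937214), had 0.160, 0.328 and 0.564 FPKM in NMDA libraries and 0.472, 0.695 and 0.845 FPKM in PBS libraries, with overlap (log2 fold change -1.03 ± 0.25, SE; edgeR adjusted p = 0.00630).

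Type IX collagen, whose trimer holds 1 chain each of Col9a1, Col9a2 and Col9a3, coats type II fibrils. Unlike its partner gene Col2a1, its genes did not pass, and the difference between Col2a1 and the type IX genes was not tested. Col9a1 (chromosome 9, 26585034 to 26668213) had 7.96, 41.5 and 82.4 FPKM in the lowest, median and highest NMDA libraries and 34.7, 52.8 and 64.3 FPKM in PBS libraries (log2 fold change -0.22 ± 0.40, SE; edgeR adjusted p = 0.710). Col9a3 (chromosome 3, 167711840 to 167734465) had 12.4, 34.6 and 63.2 FPKM in NMDA libraries and 31.8, 40.8 and 58.7 FPKM in PBS libraries (log2 fold change -0.28 ± 0.30, SE; edgeR adjusted p = 0.501). All 3 type IX genes were lowest in NMDA 1 and highest in NMDA 3, so that the NMDA group spanned the whole PBS range. Without NMDA 1 the log2 fold changes of Col9a1 and Col9a3 were -0.02 and -0.12 (edgeR adjusted p = 0.966 and 0.691), and without NMDA 3 they were -0.49 and -0.52 (edgeR adjusted p = 0.371 and 0.139). With a score of 6 connective tissue genes as a covariate, the 3 type IX genes passed, Col9a1 at -0.54, Col9a2 at -0.60 and Col9a3 at -0.46 (edgeR adjusted p = 0.0379, 0.00430 and 0.0195). None of the 3 passed by edgeR without it, by DESeq2 or by limma, and none had an unadjusted edgeR p under 0.05. Of the genes in that score, Pi16 was itself higher with NMDA (log2 fold change 0.78; edgeR adjusted p = 0.00748), so that the covariate carried some of the group difference.

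The transmembrane collagens, anchored in the cell surface and partly shed, were 4 genes, and 3 of them were lower with NMDA. Among all genes tested, 17.5% were lower and 37.9% changed in either direction, and the share among only 4 genes was not tested against these. Col25a1, a neuronal collagen needed in mouse for motor axons to enter muscle (ENSRNOG00000050706, chromosome 2, 218755691 to 219153501), had 1.01, 1.53 and 2.55 FPKM in the lowest, median and highest NMDA libraries and 3.03, 3.16 and 3.48 FPKM in PBS libraries. The PBS libraries lay close together, and every NMDA library was below them (log2 fold change -1.01 ± 0.17, SE; edgeR adjusted p = 0.000561). Col13a1, a collagen of the neuromuscular junction in mouse and human (chromosome 20, 29783965 to 29924032), had 0.786, 1.11 and 1.53 FPKM in NMDA libraries and 1.31, 1.62 and 2.09 FPKM in PBS libraries, with overlap (log2 fold change -0.58 ± 0.16, SE; edgeR adjusted p = 0.0110). Col23a1 (ENSRNOG00000003349, chromosome 10, 35549113 to 35836314) was the most abundant collagen outside the fibrillar and basement membrane classes. It had 39.9, 42.4 and 55.8 FPKM in NMDA libraries and 53.4, 58.9 and 69.5 FPKM in PBS libraries, and only the upper NMDA values reached the PBS range (log2 fold change -0.44 ± 0.10, SE; edgeR adjusted p = 0.00356). The fourth gene, Col17a1, was low at 0.0521 to 0.342 FPKM in NMDA libraries and 0.0336 to 0.187 FPKM in PBS libraries and did not pass.

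Genes of 3 retinal cell types are given beside these falls. The summed level of 10 ganglion cell genes was 207 to 544 CPM in NMDA libraries and 753 to 882 CPM in PBS libraries. Within the NMDA group it was highest in NMDA 3, followed by NMDA 1 at 492 CPM, and was 207 to 276 CPM in the rest. Müller glia genes, 9 in number, summed to 3754 to 4784 CPM in NMDA libraries and 4734 to 6439 CPM in PBS libraries, again with NMDA 3 the highest of the NMDA group. Photoreceptor genes, all 8 of them lower (edgeR), had their highest NMDA sum in NMDA 1, at 38779 CPM, beside a lowest PBS sum of 39531 CPM. NMDA 3 gave the highest NMDA value of 8 of the 10 lower collagens and of 31 of all 41 tested. The part of these cell types in the lower values was not tested.

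The beaded filament collagen, type VI, surrounds cells with a fine network. Of its 6 genes 1 changed (16.7%, against 37.9% of all genes tested). Col6a1 (ENSRNOG00000001249, chromosome 20, 11905957 to 11924597) had 2.39, 2.65 and 5.07 FPKM in the lowest, median and highest NMDA libraries and 1.25, 1.55 and 2.83 FPKM in PBS libraries. The NMDA libraries other than NMDA 3 lay between 2.39 and 2.92 FPKM, and the PBS libraries other than PBS 5 at or below 1.57 FPKM. Its log2 fold change was 0.77 ± 0.22 (SE; edgeR adjusted p = 0.0165), and without PBS 5 and NMDA 3 it was 0.75 (edgeR adjusted p = 8.98e-05). The other type VI genes had log2 fold changes of -0.33 to 0.61, the highest that of Col6a3, which was -0.90 without NMDA 3 (edgeR adjusted p = 0.199). Col1a1, Col3a1, Col6a1, Col6a3 and Col15a1 had the same pair of highest libraries, NMDA 3 and PBS 5, which also had the highest sums of mural cell genes (432.5 CPM in NMDA 3 and 310.3 CPM in PBS 5, against 143 to 191 CPM in the other libraries). The mural genes did not all share such a peak. The highest NMDA value, against the NMDA median, was 31.8 against 5.69 FPKM for Acta2, 27.2 against 6.12 for Tagln and 19.2 against 2.47 for Myh11. It was only 6.27 against 4.76 FPKM for Pdgfrb, 2.75 against 2.42 for Kcnj8 and 2.95 against 2.39 for Abcc9. The part of mural, connective tissue and pigment cell genes in the collagen values was not tested.

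**Figure D4:**
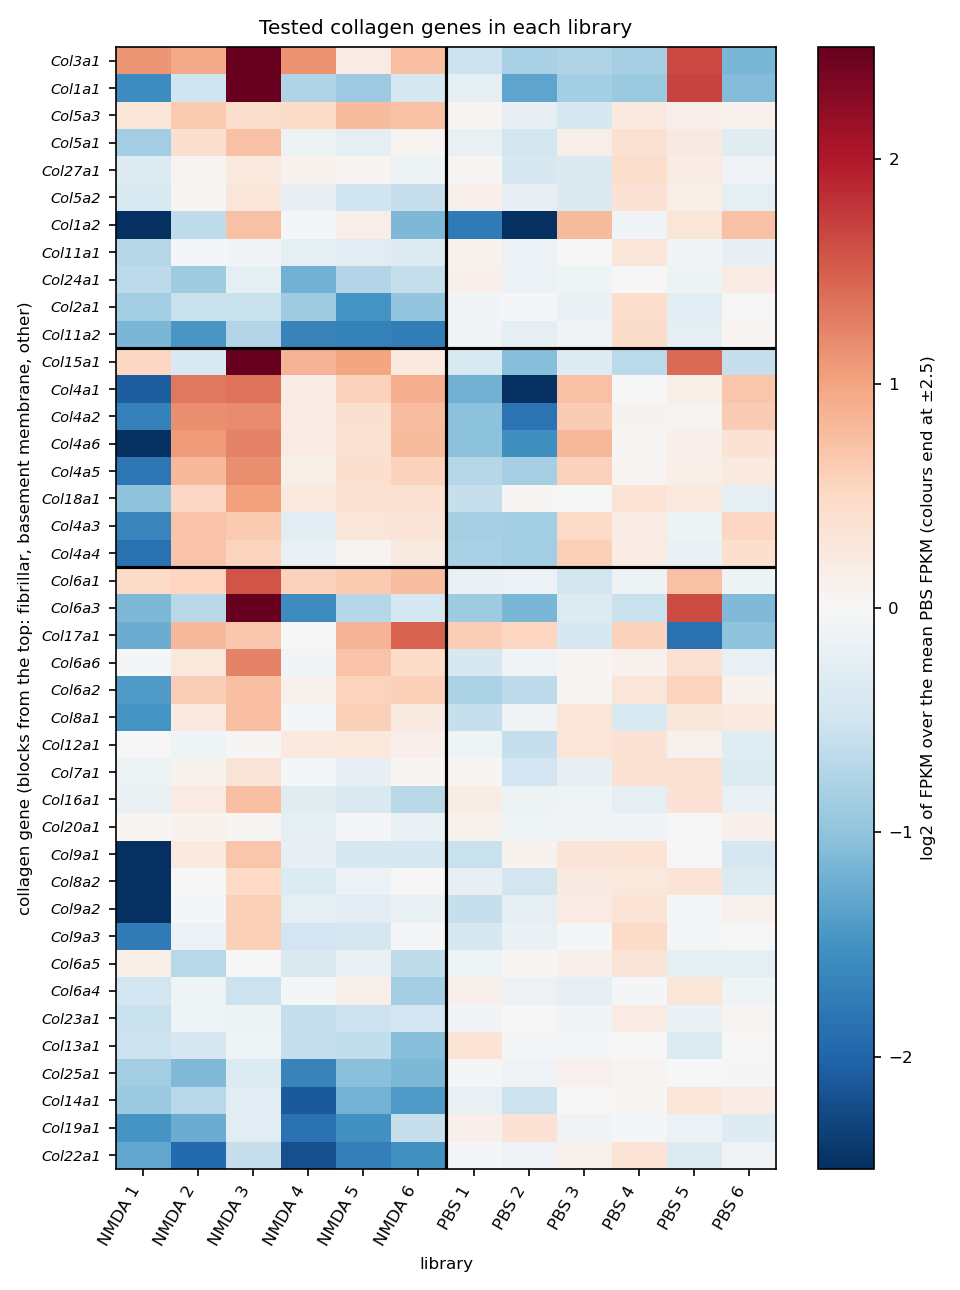
Log2 of the FPKM of each of the 41 tested collagen genes in each library over the gene's mean FPKM in PBS libraries (colour, red above and blue below), with NMDA libraries left of PBS libraries and genes grouped by class. NMDA 1 has the lowest value of all 12 libraries for 14 of the 41 genes and NMDA 3 the highest for 19.

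The other collagens did not pass. The anchoring fibril gene Col7a1, the short network genes Col8a1 and Col8a2, and the fibril-associated genes Col12a1, Col16a1 and Col20a1 were among them, with 95% intervals of the log2 fold change for Col7a1 of -0.37 to 0.32, for Col12a1 of -0.26 to 0.36 and for Col20a1 of -0.24 to 0.06. Col20a1 overlaps Arfgap1 by 15320 bases in the deposited table, Col9a2 overlaps Rims3 by 17062, Col6a2 overlaps Ftcd by 2357, Col6a6 overlaps Pik3r4 by 10163 and Col10a1 overlaps Nt5dc1 by 7001, so that their counts are uncertain in the same way as those of the type IV pairs. Too few counts were found to test Col10a1 (22 in all NMDA libraries and 11 in all PBS libraries), Col26a1 (12 with NMDA and 14 with PBS) and Col28a1 (95 with NMDA and 82 with PBS).

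A list of 68 genes that fold, trim, cross-link, bind or take up collagen was looked up, of which 63 were found and 55 tested. Of these, 15 were higher and 4 lower (34.5%; edgeR), a share close to the 37.9% of all genes, and their median log2 fold change was 0.24. Without NMDA 3, 7 were lower. In the folding and hydroxylation group, 8 of 20 were higher and 1 lower, against 20.4% higher and 17.5% lower among all genes, and the split was not tested. Ppib, the prolyl isomerase cyclophilin B, had 57.1, 67.4 and 73.1 FPKM in the lowest, median and highest NMDA libraries and 43.6, 45.8 and 47.0 FPKM in PBS libraries (log2 fold change 0.49 ± 0.05, SE; edgeR adjusted p = 2.75e-05). The groups did not overlap. Fkbp10, a collagen chaperone, had 3.70, 5.86 and 6.60 FPKM in NMDA libraries and 1.49, 2.37 and 3.31 FPKM in PBS libraries (1.22 ± 0.17; edgeR adjusted p = 0.000232). Plod3, a lysyl hydroxylase that also adds sugars, had 14.4, 18.6 and 20.1 FPKM in NMDA libraries and 10.2, 12.2 and 13.4 FPKM in PBS libraries (0.53 ± 0.08; edgeR adjusted p = 0.000260). Both were higher in every NMDA library than in any PBS library. P4hb, the shared subunit of the prolyl hydroxylases, had 70.6 ± 8.37 FPKM with NMDA and 52.5 ± 5.26 FPKM with PBS (SD, n = 6 each; 0.38 ± 0.08; edgeR adjusted p = 0.00262).

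Of 5 tested propeptide proteases and their helpers, 1 was higher and 1 lower, and the same held for 5 cross-linking enzymes. Among all genes tested, 20.4% were higher and 17.5% lower. Bmp1, which cuts the C-terminal propeptide, had 8.43 ± 1.52 FPKM with NMDA and 4.98 ± 1.36 FPKM with PBS (SD, n = 6 each; log2 fold change 0.71 ± 0.17; edgeR adjusted p = 0.00536). Adamts3, a protease that removes the N-terminal propeptide of type II collagen, had 10.6 ± 1.38 FPKM with NMDA and 13.1 ± 0.806 FPKM with PBS (-0.35 ± 0.09; edgeR adjusted p = 0.00581), and every NMDA library lay below every PBS library. Among 5 cross-linking enzymes Loxl4 was higher, at 0.293 ± 0.187 FPKM with NMDA and 0.103 ± 0.0375 FPKM with PBS (1.49 ± 0.48; edgeR adjusted p = 0.0274). Lox, lysyl oxidase, was lower, at 1.08 ± 0.576 FPKM with NMDA and 2.02 ± 0.227 FPKM with PBS (-0.95 ± 0.26; edgeR adjusted p = 0.0108). The 2 enzymes thus moved in opposite directions, and in both the NMDA and PBS libraries overlapped.

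The secreted partners of fibrils included the largest differences of the list. Fn1, fibronectin, on which cells assemble collagen, had 6.65, 9.37 and 30.9 FPKM in the lowest, median and highest NMDA libraries and 2.21, 2.71 and 3.33 FPKM in PBS libraries (log2 fold change 2.29 ± 0.38, SE; edgeR adjusted p = 0.000824). Thbs1, thrombospondin 1, had 2.61, 4.90 and 12.1 FPKM in NMDA libraries and 0.714, 1.43 and 1.77 FPKM in PBS libraries (2.09 ± 0.39; edgeR adjusted p = 0.00156). Neither overlapped between groups. Sparcl1, a collagen-binding glycoprotein of glia and vessels, was lower, at 73.6 ± 18.7 FPKM with NMDA and 116.5 ± 8.83 FPKM with PBS (SD, n = 6 each; -0.71 ± 0.14; edgeR adjusted p = 0.00232). The other 9 tested partners did not pass. In all, 2 of 12 fibril partners were higher and 1 lower, where 20.4% of all genes tested were higher and 17.5% lower. Of 5 basement membrane partners none passed by edgeR, 1 had an unadjusted p under 0.05, and 1 passed by DESeq2 and by limma voom. Their median log2 fold change was -0.10.

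Among 8 collagen receptors and uptake genes, 3 were higher and none lower, against 20.4% higher and 17.5% lower among all genes. The split was not tested. Adgrg1, an adhesion receptor that binds type III collagen, had 14.6, 22.6 and 26.9 FPKM in the lowest, median and highest NMDA libraries and 10.1, 12.6 and 14.0 FPKM in PBS libraries (log2 fold change 0.76 ± 0.12, SE; edgeR adjusted p = 0.000479). Ddr1, a receptor tyrosine kinase for collagen, had 62.9, 71.1 and 80.0 FPKM in NMDA libraries and 41.7, 49.1 and 55.8 FPKM in PBS libraries (0.48 ± 0.08; edgeR adjusted p = 0.000632). Itga2, a collagen-binding integrin subunit, had 1.69 ± 0.209 FPKM with NMDA and 1.15 ± 0.129 FPKM with PBS (SD, n = 6 each; 0.50 ± 0.11; edgeR adjusted p = 0.00295). In all 3 every NMDA library was above every PBS library, as in 9.43% of all genes tested.

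**Figure D5:**
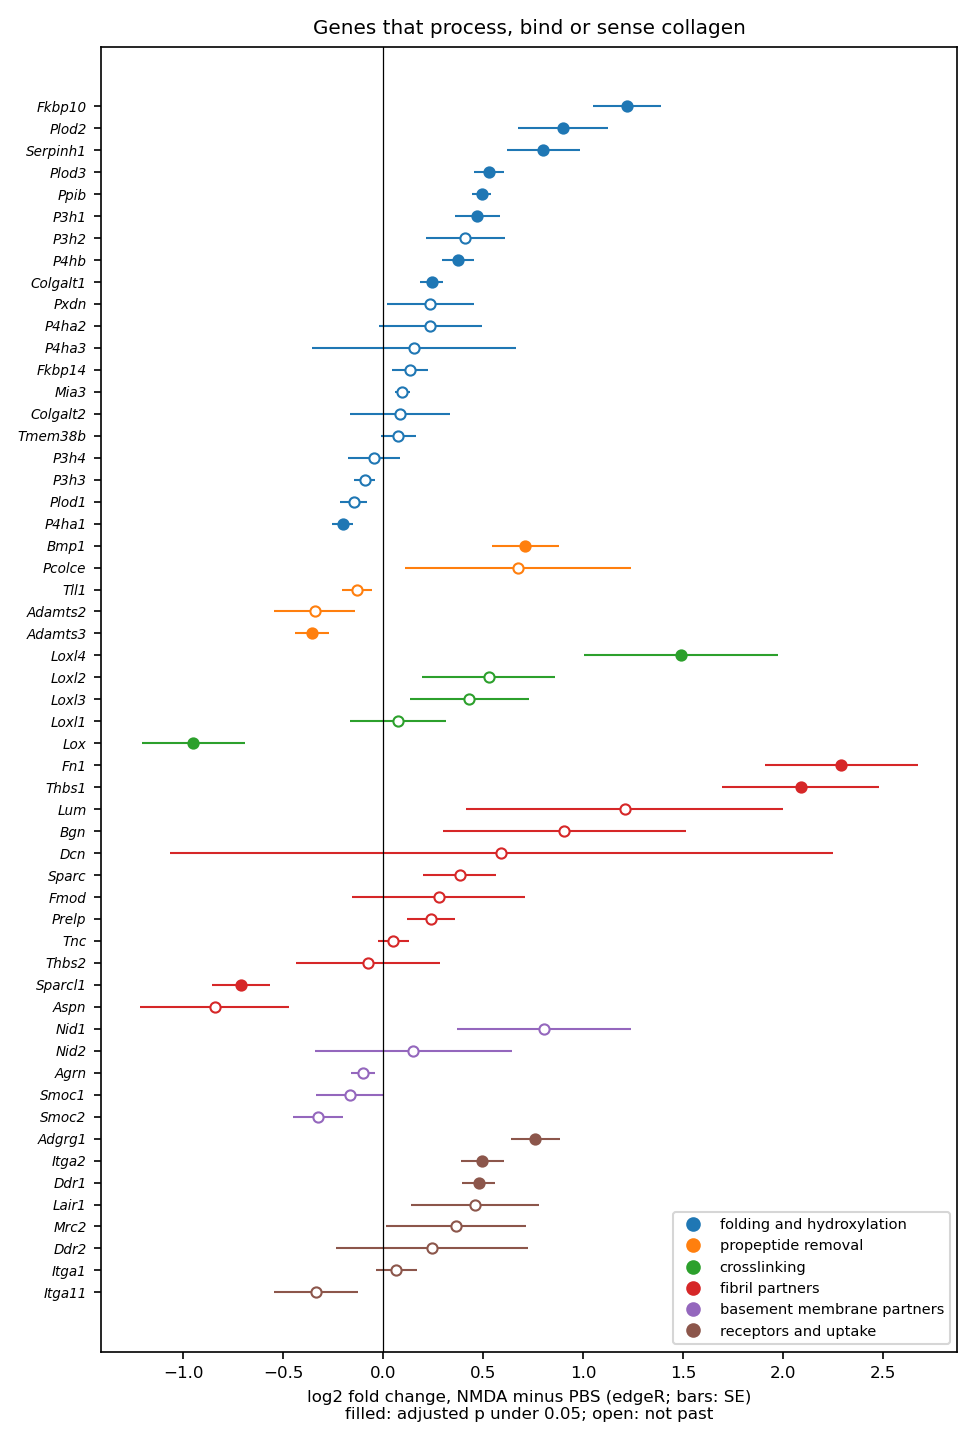
Log2 fold change (NMDA minus PBS) with its SE from edgeR for the 55 tested genes that fold, trim, cross-link, bind or take up collagen, by group, with filled points for an edgeR adjusted p under 0.05. Filled points lie above 0 for 15 genes, led by Fn1 at 2.29 and Thbs1 at 2.09, and below 0 for 4, the lowest being Lox at -0.95.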

How the data were processed

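Per the file headers, the deposited table held whole read counts per gene, not normalized, and FPKM values beside them for 12 rat retina libraries. Per the submitters' processing notes the tools were Bowtie2, RSEM 1.3.1 and DESeq2 1.4.5, without their roles. The sources used here did not give the genome build, the strand setting or the treatment of reads matching several places. In 9871 genes of 200 or more counts per library, the deposited FPKM equalled the count per gene length and library total, with a relative spread of at most 4.09e-06.

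The counts of 16260 genes, left by filterByExpr (minimum 10 counts in enough libraries, 15 in total), were tested with edgeR 4.0.16 in R 4.3.3 (TMM, robust quasi-likelihood, two-sided, group as sole term, Benjamini-Hochberg over all genes tested, threshold 0.05). SEs and 95% intervals come from that fit. FPKM values are as deposited. Ratios of 2 chains were compared by exact permutation. DESeq2 1.42.0 and limma 3.58.1 were alternatives, beside other scalings and filters, left-out libraries, a replicate block and marker covariates (mean log2 CPM, prior count 2, of 12 lens genes, 10 pigment cell genes or 6 connective tissue genes, the tested ones outside the processing list).

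Every collagen past the threshold and the 3 with the highest mean FPKM of each class were named, and up to 4 genes past the threshold per group of processing genes; other genes named were chosen after their values were seen. The members and lists were chosen with earlier results of these data known. Nothing in the labels pairs rats across groups. Each library is labelled as 1 rat. Libraries of a group differed in the counts of at least 98.6% of tested genes. Upstream sequences came from RefSeq (GRCr8); positions in the deposited table were not converted.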

Additional observations from a re-analysis of the deposited data

Results flagged for a closer look

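In each group of 6 libraries, the highest and the lowest FPKM value of every tested collagen were compared with the nearest other value. In 12 of 82 such groups 1 library stood apart by Dixon's gap test at the 95% level. Chance gives this in about 1 in 20 groups if values are normally distributed and groups independent. These groups were genes measured in the same libraries, and FPKM need not be normally distributed, so that this rate cannot be set against the 12 of 82. Of the 12, 5 were NMDA 3, 5 were PBS 5 and 2 were PBS 4, and each was the highest of its group.

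NMDA 3 and PBS 5 stood apart for the same 5 genes. Col1a1 had 4.10 FPKM in NMDA 3 (next 0.483) and 2.06 FPKM in PBS 5 (next 0.540). Col3a1 had 9.57 FPKM in NMDA 3 (next 2.93) and 4.21 FPKM in PBS 5 (next 0.922). Col15a1 had 1.67 FPKM in NMDA 3 (next 0.543) and 0.728 FPKM in PBS 5 (next 0.219). Col6a1 had 5.07 FPKM in NMDA 3 (next 2.92) and 2.83 FPKM in PBS 5 (next 1.57). Col6a3 had 1.98 FPKM in NMDA 3 (next 0.224) and 0.932 FPKM in PBS 5 (next 0.238). PBS 4 stood apart for 2 fibrillar genes, Col11a2 at 28.2 FPKM (next 21.2) and Col2a1 at 42.5 FPKM (next 30.8).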

How the results depend on the processing

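Of the 12 collagen calls, 11 kept their direction and passed under all 25 other settings run. Col11a1 did not pass in 11 of them (adjusted p 0.0543 to 0.0905). The 2 collagens higher with NMDA became 3 with limma voom and with limma on log2 FPKM. They became 4 without PBS 5 and NMDA 3, 8 with the pigment marker covariate and 1 by groups that do not overlap. Leaving out each library in turn gave 2 to 4 (4 without PBS 5, adding Col3a1 and Col15a1). The pigment covariate added Col1a1, Col3a1, Col6a3, Col6a6, Col15a1 and Col18a1; 3 of the genes in its score were themselves lower with NMDA, and Col6a6 overlaps Pik3r4. The 10 lower became 11 with limma voom, 9 with limma on log2 FPKM, 6 by groups that do not overlap and 9 to 11 when each library was left out. They became 14 with the connective tissue covariate (adding Col8a2 and the type IX genes), whose score held Pi16, itself higher with NMDA. Of the processing genes, the 15 higher became 23 with the pigment covariate and 14 to 20 with a library left out, and the 4 lower became 7 with limma voom and 4 to 7 with a library left out (7 without NMDA 3). Col9a1, which was not called, reversed to 0.021 with the pigment covariate. The difference in the log2 Col1a1 to Col1a2 ratio ran from -0.072 to 0.62 with a library left out (exact permutation p 0.455 to 0.983), reversed at -0.023 without NMDA 3, -0.037 without PBS 3 and -0.072 without PBS 6. The cause was not tested in any of these cases.

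Same-numbered libraries correlated at -0.19 to 0.153 and 0 NMDA libraries correlated best with their own number. The labels do not pair them, and these correlations cannot show whether same-numbered rats were handled together. With the replicate block 2 collagens were higher and 9 lower, without Col11a1 (-0.31, edgeR adjusted p = 0.0601). With scaling by library size only, 64.6% of all calls were higher, against 53.8% with TMM, and the median of all genes was 0.06 against 0.01; the collagen calls other than Col11a1 stayed the same. Depth limited Col10a1, Col26a1 and Col28a1, which could not be tested.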
